A study of Mus musculus with 6 samples.

Results

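The DNA replication genes described here were 54 genes that act in origin licensing, helicase activation and the replication fork, taken by gene name from the 54532 genes of the count table and sorted by complex or role into 14 groups. Each name matched a gene, and all 54 genes passed the filter on low counts, which kept 17505 genes in all. The libraries were made from bulk cerebellar mRNA of mice at postnatal day 1 (P1), with 3 control libraries (Ctrl) and 3 conditional knockout libraries (cKO). Ctrl animals were littermates of genotype *Tox3f/f* and cKO animals were *Nestin-cre;Tox3f/f*, so animals of both groups carried 2 floxed alleles of *Tox3*, which encodes a protein with an HMG box. The Nestin-Cre transgene drives Cre recombinase in neural progenitors, and the floxed gene is therefore removed in cells of the neural lineage, while cells such as endothelium and microglia come from other lineages. It was present in cKO animals and absent from Ctrl animals, and with no group that had Cre alone, the transgene and the deletion cannot be told apart here. The sources used here do not give the number of animals behind each library, so p-values measure the spread between these 6 libraries, which may be technical in part.

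Before DNA synthesis begins, the origin recognition complex binds origins and, with Cdc6 and Cdt1, loads the MCM2-7 ring around DNA as an inactive helicase, a step known as licensing that geminin (Gmnn) blocks once cells have left G1. Cdc7 kinase and its partners then bring Cdc45 and the GINS complex to the ring, which opens the DNA so that polymerases, the sliding clamp Pcna and its loader can copy both strands. In the newborn cerebellum the main dividing population is the granule neuron progenitors (GNPs) of the external granule layer, and dividing cells make more of most of these gene products than neurons that have left the cell cycle.

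Replication genes were lower in cKO than in Ctrl cerebella, with at least 1 gene called in 13 of the 14 groups in edgeR and in 12 in DESeq2 and in limma on log2(FPKM + 1), which made no call in the origin recognition complex. Of 54 genes, 29 (53.7%) were called lower and 0 were called higher, where a call needed a log2 fold change beyond 0.5 in size and a p that, adjusted by Benjamini-Hochberg over all tested genes, was under 0.01 (quasi-likelihood test of edgeR). Over all 17505 tested genes, 3.63% were called lower and 3.03% higher. The estimate was below 0 for 53 genes and above 0 for *Pole4* alone, and 48 genes had every cKO library below every Ctrl library, compared with 20.1% of all tested genes that separated in this direction and 20.4% that separated in the other. No replication gene was higher in cKO at an unadjusted p under 0.05, and DESeq2 and limma also called 0 higher. The median log2 fold change of the 54 genes was -0.55, with a range from -0.98 for *Cdc45* to 0.11 for *Pole4*, whereas the median of all tested genes was -0.01 and their 5th and 95th percentiles were -0.66 and 0.67. In bulk tissue, fewer cells that replicate and less of each mRNA per cell cannot be told apart.

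**Figure D1:**
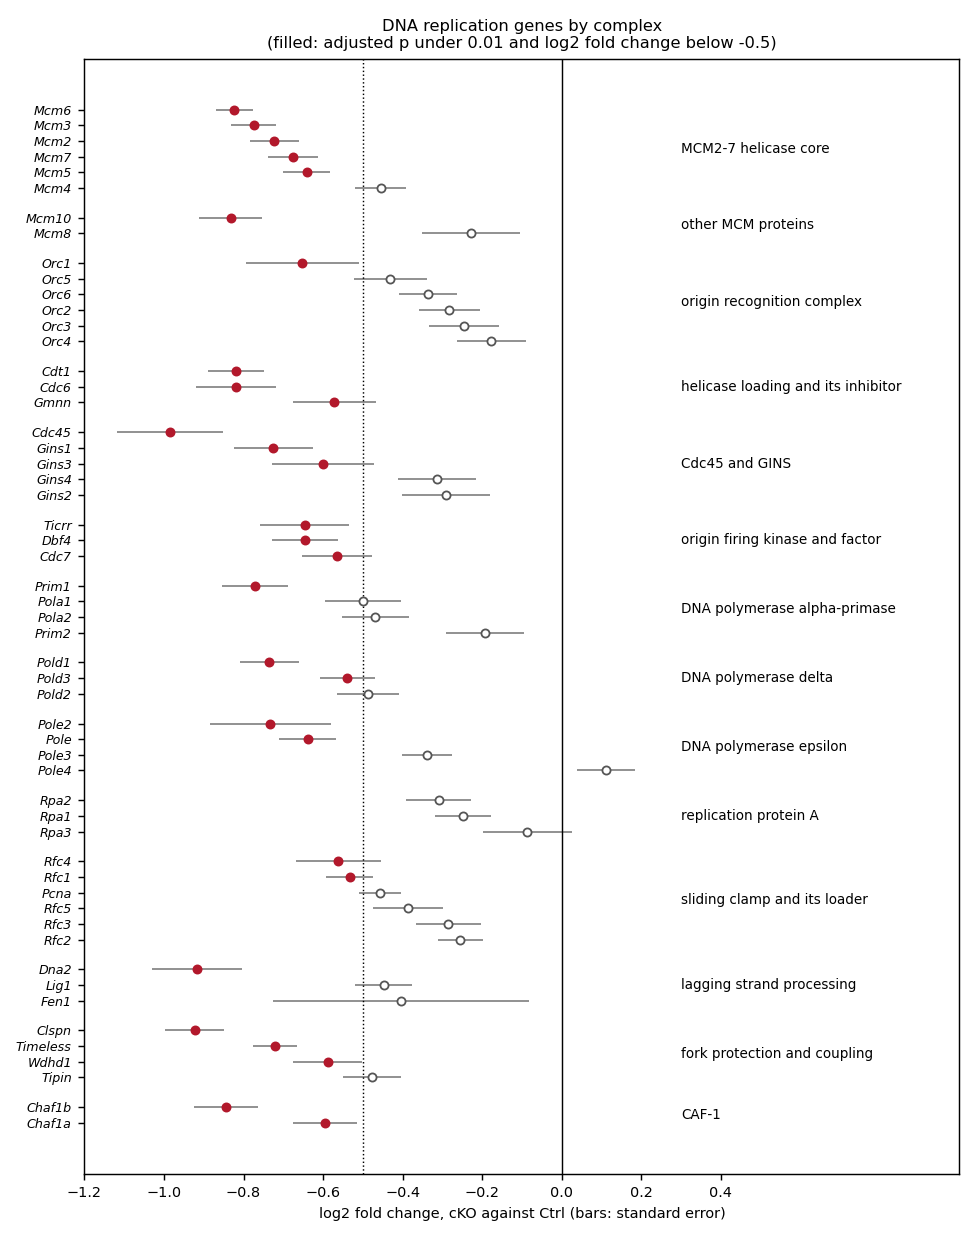
Log2 fold change of each of the 54 replication genes, cKO against Ctrl (x axis), with bars of 1 standard error, grouped by complex; filled points mark the 29 genes called lower and the dotted line marks -0.5. All points but *Pole4* (0.11) lie left of 0, and *Cdc45* lies farthest left at -0.98.

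Each cKO library showed the fall. Values of the 14 groups are set side by side as a description, and differences between groups were not tested. Counts on the 54 genes made up 0.296%, 0.290% and 0.290% of all gene counts in the 3 Ctrl libraries and 0.204%, 0.204% and 0.204% in the 3 cKO libraries. Summed FPKM (a level scaled by sequencing depth and gene length) were 762, 738 and 742 in Ctrl and 531, 529 and 527 in cKO. Relative to the Ctrl mean of each gene, the median gene of a library stood at -0.54, -0.54 and -0.55 on the log2 scale in the cKO libraries. Ctrl medians lay between -0.03 and 0.02. They centre near 0 by construction, so only their narrow spread is informative. Of the 25 genes not called, 11 had an adjusted p under 0.01 with a fold change short of the threshold (*Mcm4*, *Orc5*, *Orc6*, *Pola1*, *Pola2*, *Pold2*, *Pole3*, *Pcna*, *Rfc2*, *Lig1* and *Tipin*), 6 had an adjusted p from 0.01 to 0.05, and 8 were at 0.05 or above.

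**Figure D2:**
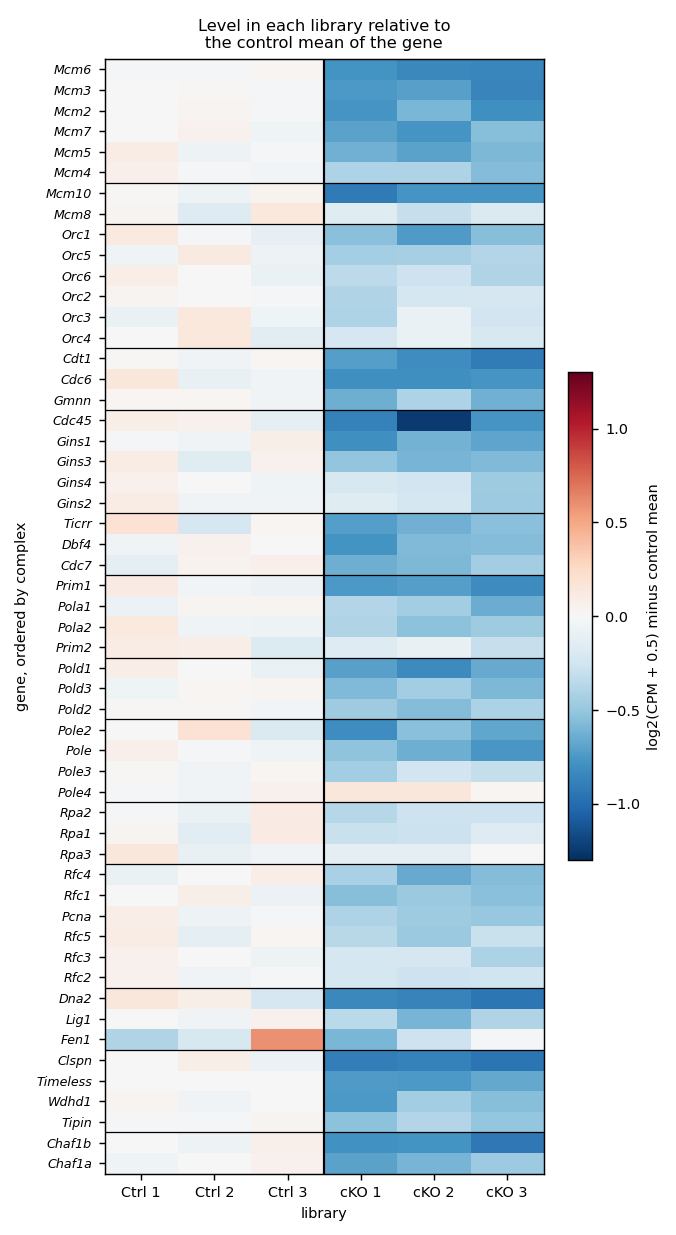
Level of each replication gene (y axis, by complex) in each of the 6 libraries (x axis), as log2(CPM + 0.5) minus the Ctrl mean of that gene; blue is lower and red is higher. The 3 cKO columns are blue for nearly every gene with a median between -0.55 and -0.54. *Pole4* is pale red in cKO 1 and cKO 2 (0.15 each) and close to white in cKO 3 (0.03).

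Total gene counts ranged from 15391854 to 17178478 per library, and the counts of single replication genes from 35 to 3174. *Tox3* stood at 64.3, 63.0 and 64.4 CPM (counts scaled by sequencing depth) in Ctrl and 55.3, 63.2 and 59.2 CPM in cKO (log2 fold change -0.11, adjusted p = 0.252), and since a count over the whole gene does not show whether the floxed part was removed, it does not check the labels. Markers of GNPs were all lower in cKO: 7 of 7 were called, their summed FPKM fell from a range of 251 to 279 to a range of 86.4 to 91.2, and *Atoh1*, the transcription factor that defines GNPs, had 501, 491 and 481 counts in Ctrl and 10, 4 and 4 in cKO. Proliferation markers were called lower in 4 of 4 cases, with summed FPKM of 93.1 to 109 in Ctrl and 51.1 to 58.9 in cKO, and *Mki67*, which marks cycling cells, changed by -1.25 on the log2 scale. Young granule neuron markers were called lower in 5 of 5 cases, while markers of Purkinje cells (3 of 6), oligodendrocyte lineage (3 of 5), Bergmann glia and astrocytes (2 of 6), meninges (2 of 5) and microglia (1 of 5) were called higher. *Pdgfra*, a marker of oligodendrocyte progenitors, went the other way, with every cKO library below every Ctrl library at -0.45 (adjusted p = 3.07e-04), short of a call. Estimates of 2 of the 5 meninges markers were also below 0, the lowest at -0.16. In limma on log2(FPKM + 1), 1 of 6 markers of Bergmann glia and astrocytes and 0 of 5 microglia markers were called higher. Over all tested genes, edgeR called 3.03% higher and 3.63% lower. In edgeR, DESeq2 and limma, 0 markers of endothelium, choroid plexus or erythrocytes were called, against 1, 2 and 0 at an unadjusted p under 0.05 in edgeR. Choroid plexus markers varied most between libraries, with summed FPKM of 58.1 to 110 in Ctrl, 153 in cKO 1, 6.98 in cKO 2 and 595 in cKO 3. Leaving out cKO 2 or cKO 3 gave 28 and 25 replication genes called lower, against 23 to 26 without any other single library. An effect of choroid plexus content on these counts was not tested. Marker levels in bulk tissue are not counts of cells, and the part of cell content in the lower replication genes was not tested.

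Many replication genes carry binding sequences for E2F factors, which switch on S phase genes as cells leave G1. Promoter windows of 300 bases, from 250 before the annotated start to 50 after it, were available from RefSeq (GRCm38.p6) for 45 of the 54 genes. The E2F letters TTTCCCGC, TTTCGCGC, TTTGCCGC or TTTGGCGC, searched on both strands, were present for 18 of the 45 genes (40%), against 704 of all 27025 genes with a RefSeq window (2.61%) and 534 of 12163 tested genes with a window (4.39%). By the RefSeq start, they stood before the start in 10 genes and only after it in the other 8. By call, 12 of 26 genes called lower (46.2%) and 6 of 19 genes not called (31.6%) had a match. The following windows show matches upstream of the start in capitals with 16 flanking bases on each side, 5′ to 3′ on the strand of the gene, first for genes called lower and then for genes that were not called, so that both kinds can be seen. Of the 10 genes, *Rfc3* (not called) is not shown because its window runs past the start.
*Mcm6*, chr1:128359788-128359831, minus strand, 2 overlapping matches from position -110 to -99: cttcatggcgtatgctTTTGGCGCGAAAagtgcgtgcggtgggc
*Mcm6*, chr1:128359729-128359768, minus strand, from position -47: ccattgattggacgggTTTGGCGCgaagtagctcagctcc
*Mcm5*, chr8:75109340-75109383, plus strand, 2 overlapping matches from position -153 to -142: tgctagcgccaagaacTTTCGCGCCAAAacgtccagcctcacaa
*Mcm7*, chr5:138172025-138172064, minus strand, from position -165: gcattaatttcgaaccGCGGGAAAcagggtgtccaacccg
*Cdc6*, chr11:98907997-98908036, plus strand, from position -138: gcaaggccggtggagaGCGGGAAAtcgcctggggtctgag
*Gins3*, chr8:95633502-95633541, plus strand, from position -41: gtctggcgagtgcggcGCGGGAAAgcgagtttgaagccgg
*Orc1*, chr4:108579411-108579450, plus strand, from position -27: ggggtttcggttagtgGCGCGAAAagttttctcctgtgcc
*Pola1*, not called, chrX:93632270-93632309, minus strand, from position -138: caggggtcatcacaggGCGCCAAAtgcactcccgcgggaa
*Orc3*, not called, chr4:34614960-34614999, minus strand, from position -41: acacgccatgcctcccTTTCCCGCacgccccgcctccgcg
*Pole4*, not called, chr6:82652885-82652924, minus strand, from position -43 or -34 by which of 2 annotated starts is used: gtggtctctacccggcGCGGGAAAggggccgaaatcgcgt
Positions count from 0 at the first base annotated by RefSeq. By the gene coordinates of the deposited table, the matches shown for *Mcm7*, *Cdc6*, *Gins3*, *Orc1* and *Pole4* lie within the gene. Bases after the RefSeq start matched the beginning of a GENCODE transcript in 46 of 55 windows. The windows that hold the matches of *Mcm5*, *Mcm6* and *Mcm7* were not among them. The 3 genes shown that were not called include *Pole4*, the gene with an estimate above 0, so matches stood beside genes of either kind. A match is a run of letters and not a measured binding site, and for a gene without one nothing follows about E2F.

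Transcripts of all 6 subunit genes of the MCM2-7 ring, the core of the replicative helicase, were lower in cKO. Of these 6 genes, 5 were called lower, all 6 had an adjusted p under 0.01, and the median log2 fold change was -0.70. *Mcm6* (ENSMUSG00000026355, chr1:128331590-128359664), whose promoter is shown above, had 181, 181 and 186 CPM in Ctrl and 107, 102 and 101 CPM in cKO. The groups lay far apart, at 183 ± 2.87 and 103 ± 2.86 CPM (SD, n = 3 each), and *Mcm6* had the smallest adjusted p of the 54 genes, 4.84e-06 in edgeR, at a log2 fold change of -0.82 (SE 0.05). *Mcm3* (-0.77), *Mcm2* (-0.72), *Mcm7* (-0.68) and *Mcm5* (-0.64) followed. *Mcm4* (ENSMUSG00000022673, chr16:15623897-15637400) changed least, with 88.0, 82.8 and 81.9 CPM in Ctrl and 63.8, 63.9 and 56.7 CPM in cKO. Its groups did not overlap, and its log2 fold change of -0.46 (SE 0.06, adjusted p = 8.83e-04) missed the threshold on size alone. Summed FPKM of the 6 genes fell to 0.623 of the Ctrl mean, from 172 ± 2.70 to 107 ± 1.19 (SD, n = 3). *Mcm7* has a near-identical copy in the annotation, *Gm5487* (97.7% identity over 2157 bases), and how reads that fit both were counted is not given in the sources used here.

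Outside the ring, *Mcm10* was called lower and *Mcm8* was not. *Mcm10* (ENSMUSG00000026669, chr2:4989714-5012791), which helps to activate the assembled helicase, had 48.4, 45.7 and 49.5 CPM in Ctrl and 25.0, 27.8 and 27.8 CPM in cKO. All cKO values lay below all Ctrl values, and the log2 fold change was -0.83 (SE 0.08, adjusted p = 8.89e-05). *Mcm8* (ENSMUSG00000027353, chr2:132816141-132844197), which acts with *Mcm9* in recombination repair, had 11.5, 9.90 and 12.3 CPM in Ctrl and 9.98, 8.99 and 9.78 CPM in cKO. Its groups overlapped, and -0.23 (SE 0.12) did not pass the test (adjusted p = 0.209). *Mcm9*, a gene of the wider pathway, stood at -0.27 (adjusted p = 0.0542).

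In the origin recognition complex most subunit genes lay below Ctrl by less than a call needed. Of its 6 subunit genes, 1 was called lower, 3 had an adjusted p under 0.01, and the median was -0.31. *Orc1* (ENSMUSG00000028587, chr4:108579423-108614833), an ATPase subunit that varies over the cell cycle, was the called gene, with 9.57, 8.59 and 8.03 CPM in Ctrl and 5.83, 5.02 and 5.79 CPM in cKO. Its groups did not overlap, its log2 fold change was -0.65 (SE 0.14, adjusted p = 0.00801), and its call was lost when any of the 6 libraries was left out (adjusted p from 0.0154 to 0.0326), in DESeq2 and in limma. *Orc5* (ENSMUSG00000029012, chr5:22486485-22550429) had the smallest p of the complex, with 19.3, 21.8 and 19.1 CPM in Ctrl and 14.6, 14.8 and 15.3 CPM in cKO. Its -0.43 (SE 0.09, adjusted p = 0.00718) and the -0.34 of *Orc6* (adjusted p = 0.00813) were short of the size needed for a call. *Orc2* stood at -0.28 (adjusted p = 0.0222) and *Orc3* at -0.25 (adjusted p = 0.0683). *Orc4* (ENSMUSG00000026761, chr2:48902824-48950277) had 46.6, 51.0 and 41.9 CPM in Ctrl and 39.9, 43.6 and 40.0 CPM in cKO. These ranges overlapped, and the log2 fold change of -0.18 (SE 0.09) had an adjusted p of 0.167. Summed FPKM of the complex were 0.814 of the Ctrl mean.

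All 3 genes that control loading of the ring were called lower, the loading factors as well as their inhibitor. *Cdt1* (ENSMUSG00000006585, chr8:122568015-122573554), which carries the ring to origins, had 68.2, 65.4 and 68.8 CPM in Ctrl and 40.7, 38.3 and 35.6 CPM in cKO. The groups were well apart, with a log2 fold change of -0.82 (SE 0.07, adjusted p = 4.84e-05). *Cdc6*, the ATPase that loads the ring together with the origin complex, fell by the same amount, from 19.3 ± 1.76 to 10.9 ± 0.13 CPM (SD, n = 3), at -0.82 (SE 0.10, adjusted p = 3.89e-04). *Gmnn*, which encodes geminin, fell from 17.0 ± 0.507 to 11.5 ± 1.13 CPM, at -0.57 (SE 0.10, adjusted p = 0.00322). The *Gmnn* call was lost without each Ctrl library and without cKO 1 or cKO 3 (adjusted p from 0.0103 to 0.0171). The annotation holds a close copy of *Cdc6*, *Gm9430*, with 95.2% identity over 1528 bases.

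*Cdc45* and the 4 GINS subunit genes, which complete the active helicase with the MCM2-7 ring, were all below Ctrl but by uneven amounts. *Cdc45* (ENSMUSG00000000028, chr16:18780447-18811987) had the largest fall of the 54 genes in edgeR, from 20.8, 20.4 and 18.0 CPM in Ctrl to 10.5, 8.02 and 11.3 CPM in cKO. The lowest Ctrl library lay well above the highest cKO library, and the log2 fold change was -0.98 (SE 0.13, adjusted p = 6.71e-04). *Gins1* (-0.73, adjusted p = 6.95e-04) and *Gins3* (-0.60, adjusted p = 0.00762) were also called, but the *Gins3* call was lost when any of the 6 libraries was left out (adjusted p from 0.0104 to 0.0321), in DESeq2 and in limma. *Gins4* stood at -0.31 (adjusted p = 0.0408). *Gins2* (ENSMUSG00000031821, chr8:120578633-120589304) had 18.0, 16.3 and 16.3 CPM in Ctrl and 15.1, 14.3 and 12.0 CPM in cKO. Its groups did not overlap, but -0.29 (SE 0.11) had an adjusted p of 0.0809. Of the *Gins2* exon bases, 67.3% lie opposite exons of *Gse1* on the other strand, and since the sources used here do not say whether reads were counted by strand, the counts of these genes may be mixed.

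The genes that fire licensed origins were all called lower. *Dbf4* (ENSMUSG00000002297, chr5:8396973-8422716), the activating partner of Cdc7 kinase, had 45.2, 48.5 and 46.6 CPM in Ctrl and 27.1, 31.3 and 31.5 CPM in cKO. No library of a group came near the other group, with a log2 fold change of -0.65 (SE 0.08, adjusted p = 4.99e-04). *Cdc7* itself changed by -0.57 (SE 0.09, adjusted p = 0.00134). *Ticrr*, which encodes treslin and helps to bring Cdc45 to origins, changed by -0.65 (SE 0.11, adjusted p = 0.0024), a call that was lost without Ctrl 3 or without cKO 1 (adjusted p 0.0119 and 0.0134).

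**Figure D3:**
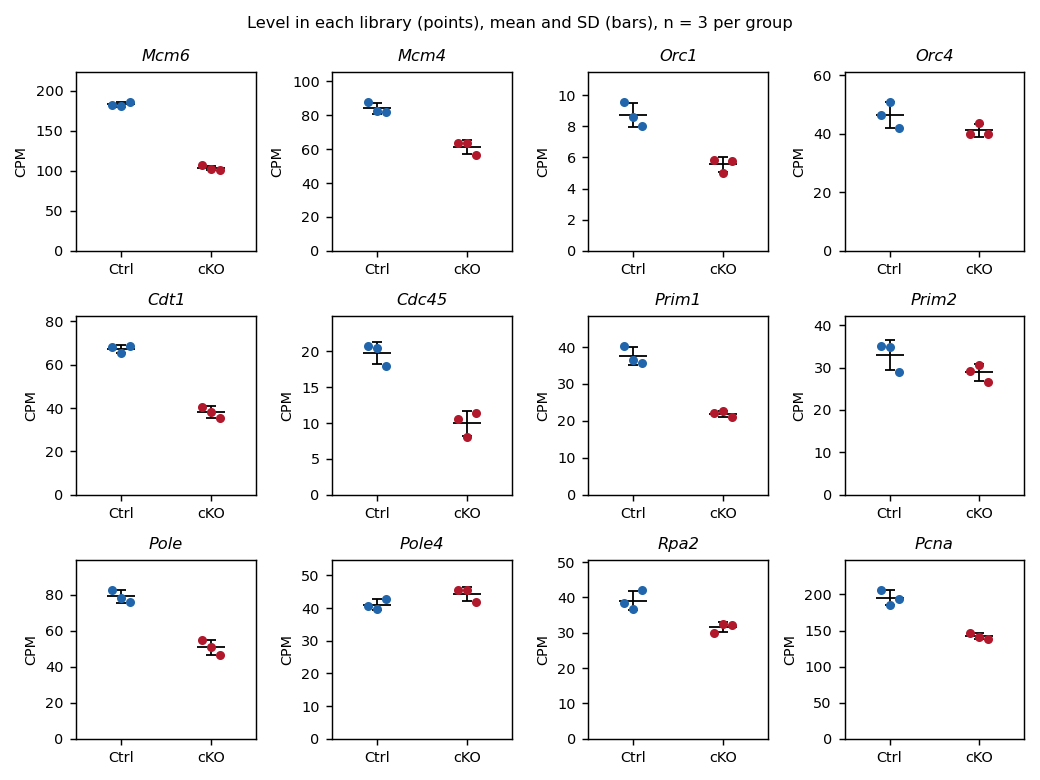
CPM (y axis, from 0) of 12 replication genes in each Ctrl and cKO library (points), with the group mean and SD (bars, n = 3 per group). *Mcm6*, *Cdt1*, *Cdc45*, *Prim1* and *Pole* show wide gaps between the groups, whereas those of *Orc4*, *Prim2* and *Pole4* overlap.

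In the polymerase alpha-primase complex, which lays down RNA and DNA primers, 1 of 4 genes was called lower. *Prim1* (ENSMUSG00000025395, chr10:128015168-128030037), the catalytic subunit, had 40.4, 36.6 and 35.6 CPM in Ctrl and 22.2, 22.7 and 21.1 CPM in cKO. These groups lay far apart, at a log2 fold change of -0.77 (SE 0.08, adjusted p = 1.74e-04). *Prim2* (ENSMUSG00000026134, chr1:33453810-33669795), the regulatory subunit, had 35.2, 34.9 and 29.0 CPM in Ctrl and 29.3, 30.7 and 26.6 CPM in cKO. Here Ctrl 3 lay within the cKO range, and -0.19 (SE 0.10) did not pass the test (adjusted p = 0.185). The polymerase subunit genes *Pola1* (-0.50, adjusted p = 0.00439) and *Pola2* (-0.47, adjusted p = 0.00308) did not reach the size threshold, *Pola1* by the smallest margin of the group. *Pola1* was called when Ctrl 1, cKO 1 or cKO 2 was left out (-0.56 to -0.51), and *Pola2* when Ctrl 3 or cKO 1 was left out (-0.50, just beyond the threshold).

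Polymerase delta, which copies the lagging strand, had 2 of 3 genes called lower. Its catalytic subunit gene *Pold1* (ENSMUSG00000038644, chr7:44532746-44548849) had 72.9, 68.8 and 64.4 CPM in Ctrl and 41.9, 38.4 and 43.5 CPM in cKO. The groups did not overlap, with a log2 fold change of -0.74 (SE 0.07, adjusted p = 1.32e-04). *Pold3*, an accessory subunit, changed by -0.54 (adjusted p = 5.01e-04). *Pold2* (ENSMUSG00000020471, chr11:5872180-5878292) had 34.7, 34.7 and 33.3 CPM in Ctrl and 24.7, 23.0 and 25.6 CPM in cKO. It was as well separated, and its -0.49 (SE 0.08, adjusted p = 0.00159) lay just short of a call, which it reached without Ctrl 3 or without cKO 3 (-0.52 and -0.51).

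Polymerase epsilon, which copies the leading strand, had the genes of its 2 larger subunits called lower and those of its 2 small ones not. *Pole* (ENSMUSG00000007080, chr5:110286306-110337474), the catalytic subunit, had 82.9, 78.4 and 76.0 CPM in Ctrl and 55.0, 50.8 and 46.6 CPM in cKO. All cKO values were lower, with a log2 fold change of -0.64 (SE 0.07, adjusted p = 2.40e-04). *Pole2* was called at -0.73 (adjusted p = 0.00658), though not without Ctrl 1, Ctrl 2, cKO 1 or cKO 3 (adjusted p from 0.0204 to 0.0308). Exons of *Gm49384* on the same strand overlap 8.5% of the *Pole2* exon bases. *Pole3* and *Pole4* encode small histone-fold subunits that bind each other. *Pole3* changed by -0.34 (SE 0.06, adjusted p = 0.00378), and *Pole4* (ENSMUSG00000030042, chr6:82618992-82705365) had 40.7, 39.7 and 42.8 CPM in Ctrl and 45.6, 45.6 and 41.9 CPM in cKO. The *Pole4* groups overlapped, and 0.11 (SE 0.07) did not pass the test (adjusted p = 0.297). By mean FPKM, *Pole4* ranked 15th of the 54 genes in Ctrl (16.2) and 8th in cKO (17.6).

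Replication protein A, which coats single-stranded DNA in replication and in repair, had the median nearest 0 of the 14 groups, -0.25. In edgeR 0 of its 3 genes were called, with 2 at an unadjusted p under 0.05, and DESeq2 and limma also called 0. *Rpa2* (ENSMUSG00000028884, chr4:132768332-132778752) had 38.3, 36.8 and 42.2 CPM in Ctrl and 30.0, 32.4 and 32.3 CPM in cKO. Its groups did not overlap, at -0.31 (SE 0.08, adjusted p = 0.0201), and *Rpa1*, the largest subunit, stood at -0.25 (SE 0.07, adjusted p = 0.0264). *Rpa3* (ENSMUSG00000012483, chr6:8255936-8259173) had 13.9, 11.7 and 12.1 CPM in Ctrl and 11.4, 11.5 and 12.5 CPM in cKO. These ranges overlapped, with a log2 fold change of -0.09 (SE 0.11, adjusted p = 0.614). Summed FPKM of the 3 genes were 0.861 of the Ctrl mean, the highest ratio of the 14 groups, next to 0.840 for polymerase epsilon.

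The sliding clamp and its loader were separated from Ctrl in all 6 genes, of which 2 were called lower, with a median of -0.42. *Pcna* (ENSMUSG00000027342, chr2:132249162-132253314), the clamp that tethers polymerases to DNA, had the highest FPKM of the 54 genes in both groups. It had 207, 186 and 193 CPM in Ctrl and 147, 141 and 138 CPM in cKO. The groups did not overlap, and its log2 fold change of -0.46 (SE 0.05, adjusted p = 2.88e-04) fell short on size. Of the loader, *Rfc1* (ENSMUSG00000029191, chr5:65261850-65335670), the large subunit, had 85.7, 90.2 and 81.3 CPM in Ctrl and 58.2, 61.1 and 58.5 CPM in cKO, at -0.53 (SE 0.06, adjusted p = 2.17e-04). *Rfc4* (-0.56, adjusted p = 0.00385) was the other called gene. Neither call held in all cases, since *Rfc1* fell just short on size without Ctrl 2 (-0.50) and *Rfc4* lost its call without Ctrl 2, Ctrl 3, cKO 2 or cKO 3 (adjusted p from 0.0118 to 0.0183). *Rfc3* (ENSMUSG00000033970, chr5:151642756-151651242) had the largest p of the group, with 42.4, 40.8 and 38.8 CPM in Ctrl and 34.8, 34.9 and 30.5 CPM in cKO. It was separated but modest in size, at -0.29 (SE 0.08, adjusted p = 0.0298), like *Rfc5* (-0.39, adjusted p = 0.0106) and *Rfc2* (-0.26, adjusted p = 0.00866). *Pcna* and *Rfc5* have near-identical copies in the annotation, *Pcna-ps2* (99.2% identity over 781 bases) and *Gm12870* (96.2% over 1020 bases). Exons on the other strand cover 15.1% of the exon bases of *Rfc2* (*Lat2*), 12.65% of *Rfc4* (*Eif4a2*) and 10.7% of *Rfc5* (*Wsb2*).

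Of 3 genes that finish the lagging strand, 1 was called lower. *Dna2* (ENSMUSG00000036875, chr10:62947026-62974185), a nuclease and helicase that trims long flaps, had 26.9, 25.4 and 20.6 CPM in Ctrl and 13.3, 13.0 and 12.3 CPM in cKO. The lowest Ctrl library was above all of cKO, with a log2 fold change of -0.92 (SE 0.11, adjusted p = 3.85e-04). *Lig1*, the ligase that seals Okazaki fragments, changed by -0.45 (SE 0.07, adjusted p = 0.0015), short of a call. *Fen1* (ENSMUSG00000024742, chr19:10199132-10204169), the flap endonuclease, had 2.41, 2.80 and 5.27 CPM in Ctrl and 2.02, 2.67 and 3.24 CPM in cKO. Ctrl 3 stood alone and the groups overlapped, so -0.40 (SE 0.32) had an adjusted p of 0.398 and became 0.018 without Ctrl 3. *Fen1* had the lowest FPKM of the 54 genes (1.43 in Ctrl), and 78.8% of its exon bases lie opposite the antisense gene *Gm10143*. Whether that overlap set its low count was not tested.

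Of 4 fork protection genes, 3 were called lower and all 4 had an adjusted p under 0.01. *Timeless* (ENSMUSG00000039994, chr10:128232065-128252941), which couples helicase and polymerases, had 79.4, 79.9 and 79.0 CPM in Ctrl and 47.6, 47.2 and 49.8 CPM in cKO. It had the tightest Ctrl values of the complex (SD 0.45) and a log2 fold change of -0.72 (SE 0.06, adjusted p = 2.68e-05). *Clspn*, which encodes claspin, the adaptor that passes the fork stress signal to Chek1, changed by -0.92 (SE 0.07, adjusted p = 3.10e-05), and *Wdhd1*, which links the helicase to polymerase alpha, by -0.59 (SE 0.09, adjusted p = 0.00102). *Tipin* (ENSMUSG00000032397, chr9:64281581-64305424), the partner of Timeless, had 47.1, 47.3 and 49.1 CPM in Ctrl and 32.8, 36.5 and 33.7 CPM in cKO. Its groups did not overlap, and -0.48 (SE 0.07, adjusted p = 0.00124) was just short of a call, which it reached without cKO 2 (-0.51).

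CAF-1, the chaperone that places new histones behind the fork, had both of its genes called. *Chaf1b* (ENSMUSG00000022945, chr16:93883901-93906115) had 41.3, 39.3 and 43.0 CPM in Ctrl and 23.7, 23.8 and 21.3 CPM in cKO. This clear gap gave a log2 fold change of -0.84 (SE 0.08, adjusted p = 9.85e-05), and *Chaf1a*, the large subunit, changed by -0.60 (SE 0.08, adjusted p = 6.40e-04). Exons of *Ubxn6* on the other strand cover 52.5% of the *Chaf1a* exon bases. By summed FPKM, CAF-1 (0.600 of the Ctrl mean) and the loading factors (0.603) had the lowest ratios of the 14 groups, and in 7 groups more than 50% of the genes were called lower.

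The relative levels of partners were compared as log2 ratios of FPKM within each library for 13 pairs of replication genes. A two-sided exact permutation test over 6 libraries cannot give a p under 0.1, so no pair could pass 0.05. Ratios were lower in every cKO library than in any Ctrl library for *Cdc6*/*Orc2* (difference -0.53), *Orc1*/*Orc2* (-0.37), *Pola1*/*Prim2* (-0.31) and *Timeless*/*Tipin* (-0.24), and higher for *Chaf1a*/*Chaf1b* (0.25), each with an exact permutation p of 0.1 and 0.26 after Benjamini-Hochberg adjustment over the 13 pairs. *Cdc6*/*Orc2*, a loading factor set against a subunit of the origin complex, was -1.44, -1.65 and -1.58 in Ctrl and -1.99, -2.15 and -2.13 in cKO. This was the largest of the 13 differences. Of the *Orc2* exon bases, 29.8% lie opposite exons of *Nif3l1*, as 52.5% of the *Chaf1a* exon bases do opposite *Ubxn6*. Since the treatment of strand is not given, ratios with these genes may be mixed with counts of their neighbours. *Cdt1*/*Gmnn*, the loading factor over its inhibitor, differed by -0.25 and *Pole*/*Pole3* by -0.30, each with overlapping groups (exact permutation p = 0.2, adjusted 0.371). Differences for *Mcm2*/*Mcm7* (-0.05), *Mcm10*/*Mcm2* (-0.11), *Cdc7*/*Dbf4* (0.08), *Pold1*/*Pole* (-0.09), *Rpa1*/*Rpa2* (0.06) and *Pcna*/*Rfc1* (0.08) also came from overlapping groups (exact permutation p from 0.3 to 0.7).

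**Figure D4:**
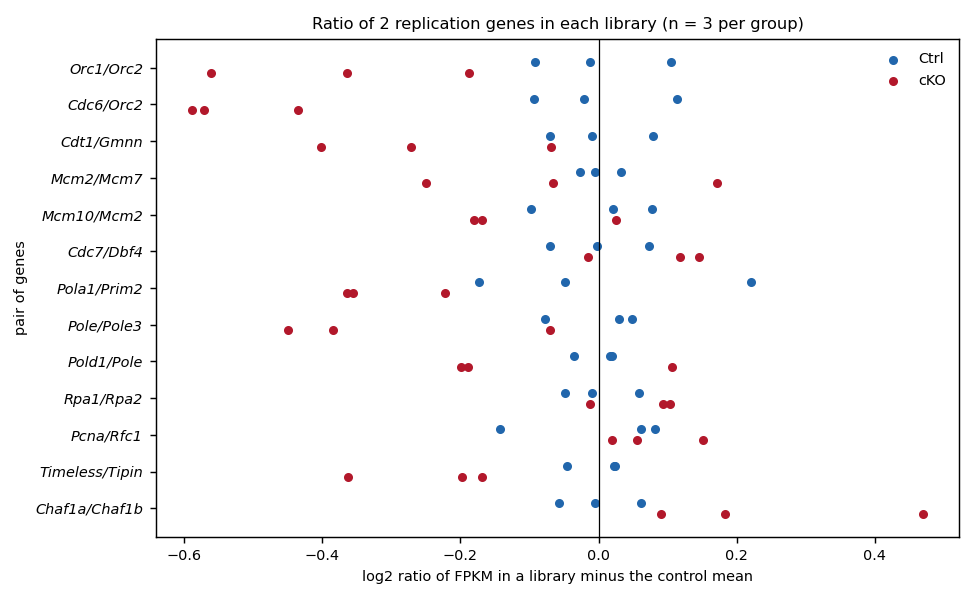
Log2 ratio of the FPKM of 2 replication genes in each library minus the Ctrl mean of the pair (x axis), for 13 pairs (y axis), with Ctrl in blue and cKO in red (n = 3 per group). The red points of *Cdc6*/*Orc2* lie left of all blue ones, with a mean difference of -0.53, and those of *Chaf1a*/*Chaf1b* lie right of them.

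Other genes of the pathway had some calls lower and 0 higher in edgeR, DESeq2 and limma, and none was higher at an unadjusted p under 0.05. For comparison, 3.63% of all tested genes were called lower, and 20.1% had every cKO library below every Ctrl library. Of 14 other replication factors, 3 were called lower and 0 higher, with a median of -0.26. The called genes were *Top2a* (-0.72, adjusted p = 1.54e-05), a topoisomerase that untangles replicated chromosomes, *Recql4* (-0.57, adjusted p = 0.00788), a helicase of replication initiation, and *Topbp1* (-0.54, adjusted p = 1.27e-04), which works with treslin at origins. Of 5 genes of alternative clamp loaders, *Dscc1* (-0.61, adjusted p = 0.00561) and *Chtf18* (-0.58, adjusted p = 0.00349) were called, both parts of a loader tied to sister chromatid cohesion, while *Atad5*, which unloads Pcna, had -0.74 and an adjusted p of 0.0104. Of 9 genes of histone supply, *Asf1b* (-0.88, adjusted p = 0.00186), *Mms22l* (-0.81, adjusted p = 0.00117) and *Nasp* (-0.57, adjusted p = 2.80e-05) were called, and the groups of all 9 genes were separated. Of 7 ATR checkpoint genes, only *Etaa1*, an activator of ATR, was called (-0.51, adjusted p = 0.00119).

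Genes of DNA synthesis outside the nuclear fork had 1 call in all, though most estimates were below 0. This held for 9 of 10 mitochondrial genes and for 10 of 11 translesion and repair polymerase genes. Every cKO library lay below every Ctrl library for 6 and 2 of these genes. Of all tested genes, 20.1% separated in this direction and 3.63% were called lower. Of 10 genes of mitochondrial DNA replication, 1 was called lower, *Twnk* (-0.53, adjusted p = 9.68e-04), which encodes the mitochondrial helicase, and the median was -0.17. Of 11 translesion and repair polymerase genes, 0 were called in edgeR, with 3 at an unadjusted p under 0.05, and 0 in DESeq2 or limma. Their median was -0.21, and the gene with the smallest p was *Polm* (-0.31, adjusted p = 0.0299), a polymerase of end joining. The differences between these lists and the 54 replication genes were not tested.

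**Figure D5:**
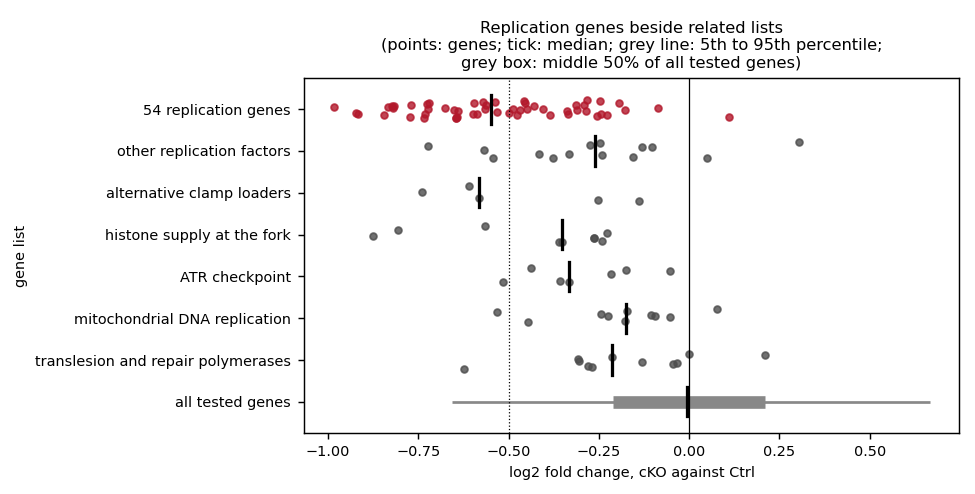
Log2 fold change, cKO against Ctrl (x axis), of each gene of the 54 replication genes and of 6 related lists (points, y axis), with the median of each list as a tick and the percentiles of all tested genes in grey. The medians run from -0.58 for alternative clamp loaders and -0.55 for the 54 genes to -0.17 for mitochondrial DNA replication, beside -0.01 for all tested genes.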

How the data were processed

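Poly-A mRNA of 6 P1 cerebellar libraries was sequenced as paired-end reads. Before counting, the authors discarded reads with adapter sequence, unknown bases or poor quality. HISAT2 2.0.5 placed the remaining reads on mm10 and featureCounts 1.5.0-p3 assigned them to genes, and the deposited counts carry no normalization. The deposited FPKM values rest on the same counts and on gene length, and the authors' own comparison used DESeq2. Neither the annotation release nor the treatment of strand and of multi-mapping reads is given in the sources used here. Groups were taken from the labels.

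From the counts, cKO was compared with Ctrl by the quasi-likelihood test of edgeR 4.0.16 in R 4.3.3, after filterByExpr and TMM scaling, with Benjamini-Hochberg adjustment over 17505 genes that held 99.8% of all counts. CPM are counts divided by the TMM-scaled library total, and the common dispersion was 0.0105. Genes were called at a log2 fold change beyond 0.5 with an adjusted p under 0.01. FPKM served for levels between genes, for ratios of 2 genes (exact permutation test) and for limma 3.58.1. Same-group libraries differed by more than sampling noise (chi-square per gene 3.63 to 10.0). Alternatives were other scalings, filters and thresholds, DESeq2 1.42.0, limma-trend with a pseudocount of 1 or 0.1 on FPKM, a replicate block, the level of Y-linked genes as a covariate, and each library left out in turn. Fits were tested on simulated counts.

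Every replication gene could be named. For each complex, values per library were given for the gene with the smallest p and, where a gene was not called, for the gene with the largest p, and *Orc1* and *Pcna* were added after their values were seen. Of the markers, *Atoh1* and *Mki67* were named. From each pathway list, called genes and at most the 3 with the smallest p were named. *Mcm9* and *Pdgfra* were named after their values were seen. The replication genes, gene lists and tests were chosen with earlier results of these data known. Gene coordinates are those of the deposited table (GRCm38), and 53 of the 54 equal those of GENCODE vM21, which was used for exon overlaps and transcript similarity (at least 95% identity over 200 bases). Exons of 20 of the 54 genes overlap exons of another annotated gene, not all of which are named here. Promoter windows were taken from RefSeq (GRCm38.p6). Windows of *Mcm4*, *Gmnn*, *Gins1*, *Gins2*, *Gins4*, *Prim2*, *Pole*, *Rfc2* and *Tipin* and protein sequences were not used here.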

Additional observations from a re-analysis of the deposited data

How the results depend on the processing

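The number of replication genes called lower was 29 with DESeq2 size factors, library size alone and both other count filters, 27 in DESeq2, 31 with Y-linked genes as a covariate, and 20 and 25 in limma on log2(FPKM + 1) and log2(FPKM + 0.1). It moved to 15 with log2(FPKM + 1) and no filter, to 46 at an adjusted p under 0.05 with no size threshold, and to 3 (*Mcm3*, *Mcm6* and *Clspn*) in a test against a log2 fold change of 0.5. With 1 library left out it was 23 (without Ctrl 2) to 28, and 22 of the 29 calls held in each case. None of these settings called a replication gene higher. Over all genes, calls lower and higher were 635 and 530 in the main comparison, 626 and 575 in DESeq2, 388 and 281 in limma on log2(FPKM + 1), 286 and 176 without its filter, 455 and 335 on log2(FPKM + 0.1), 2252 and 2136 at the looser threshold, 145 and 30 in the test against 0.5, and 492 to 778 and 349 to 569 with 1 library left out. The median log2 fold change of the 54 genes was -0.54 with DESeq2 size factors, in DESeq2 and on log2(FPKM + 0.1), -0.53 with library size alone or the Y-linked covariate, -0.45 on log2(FPKM + 1) with or without the filter, and -0.55 to -0.52 with 1 library left out. The number of groups with more than 50% of genes called lower, 7 in the main comparison, was 2 on log2(FPKM + 1) with or without the filter, 13 at the looser threshold and 0 in the test against 0.5. A larger pseudocount shrinks fold changes of low genes by construction. The replicate block gave 30 genes called lower and a median of -0.55, with 696 and 561 calls over all genes. Whether the replicate numbers pair the libraries is not known. Correlations of deviations were 0.26, 0.30 and -0.16 for same-numbered libraries and -0.44 to 0.28 for the others. With 3 libraries a group these values cannot settle it. *Fen1* ranged from -0.61 without Ctrl 1 to 0.018 without Ctrl 3, and no other replication gene changed sign. With 1 added to FPKM, the ratio differences of *Orc1*/*Orc2* and *Cdc6*/*Orc2* shrank to -0.18 and -0.34, and that of *Mcm2*/*Mcm7* was 0.05 without cKO 3. With 3 libraries a group, the largest standard errors were those of genes with low counts, *Fen1* (0.32, with 35 counts in cKO 1), *Pole2* (0.15) and *Orc1* (0.14).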

Other observations

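Apart from the E2F letters, the promoter windows of the replication genes were searched for the CCAAT box (CCAAT, both strands) and for the E-box CAGCTG. The CCAAT letters were present for 25 of 45 genes (55.6%), against 41.1% of all genes with a RefSeq window, in 14 of 26 genes called lower and 11 of 19 not called. The E-box letters were present for 8 of 45 genes (17.8%), against 18.3% of all genes with a window. Both are counts of letters and not of bound sites.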
